A study of Homo sapiens with 12 samples.

Results

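The core of the RAS to ERK cascade was examined after siRNA against KMT9α in bladder carcinoma cells, as 7 genes chosen by symbol: the GTPases HRAS and NRAS, the RAF kinases ARAF and BRAF, the MEK kinases MAP2K1 and MAP2K2, and the ERK kinase MAPK3. They are 7 of the 23064 gene symbols in the count tables, and the rule that picks them uses symbols and no measured value, although it was written with earlier results of these data known. For each symbol, the RefSeq transcript with the most counts was used, which was the same transcript in both lines for all 7 genes. RNAseq had been performed in CAL-29 and 5637 cells, which are established human bladder carcinoma lines labelled as wild type, on day 3 of treatment with either siKMT9α#1 or siCtrl, the control siRNA. There were 3 libraries for each siRNA in each line and 12 in all. The column names call the siRNA si270, and that it is siKMT9α#1 was taken from the study's results. Transfection reagent, siRNA dose and culture medium differed between CAL-29 and 5637 cells, so that they cannot be told apart from the line. Nothing in the labels states that the replicates came from separate cultures, so the p-values measure the spread between these libraries, which may be technical.

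RAS GTPases relay signals from growth factor receptors at the membrane. In the GTP-bound state, they recruit RAF kinases, which phosphorylate MEK, and MEK phosphorylates ERK, the kinase that acts on transcription factors and other substrates. Each tier has paralogues with overlapping functions, and in urothelial tumors the cascade lies downstream of EGFR and FGF receptors and can be activated by RAS mutation.

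The libraries held between 24479348.5 and 35151256.5 counts on 1 transcript per symbol. Levels are given as CPM (counts scaled to a library of fixed size, with TMM, within a line) and differences as the log2 fold change of siKMT9α#1 over siCtrl with its standard error (SE). A DEG had an unadjusted p below 1e-06 in edgeR's quasi-likelihood test within a line, and adjusted p-values are Benjamini-Hochberg values from that test over all genes. N6AMT1, which encodes KMT9α, fell from 10.4 to 2.58 CPM in CAL-29 (log2 fold change -2.00) and from 13.3 to 2.84 CPM in 5637 cells (-2.23), and it was a DEG in both. EGFR was a downregulated DEG in both lines, with log2 fold changes of -0.63 and -0.36, and its longest annotated 3′ UTR holds 3 copies of ACATTCA, the match to the siRNA seed described in the next paragraph, and 1 of the siCtrl match, and its shortest holds none. As for the tissue of origin, marker levels and sums are CPM of the joint fit of all 12 libraries unless stated otherwise. All 6 epithelial markers (EPCAM, CDH1 and 4 keratins) were at 10 CPM or more in every group. Of the 7 urothelial markers, GATA3, PPARG and FOXA1 were at 10 CPM or more in every group and UPK1B in CAL-29 cells, whereas UPK1A and UPK3A were under 1 CPM in both lines and UPK2 in 5637 cells. None of the 4 leukocyte markers passed the filter on low counts. In the joint fit of all 12 libraries, the fibroblast marker DCN and the endothelial marker PECAM1 did not pass it either. The other 3 fibroblast markers summed to at most 2.92 CPM and the other 3 endothelial markers to at most 13.3 CPM. Among the latter, KDR averaged 10.8 CPM with siCtrl and 1.70 CPM with siKMT9α#1 in CAL-29 cells, scaled within that line. The summed level of the epithelial markers moved with the siRNA, from between 10550 and 10960 to between 5137 and 5284 CPM in CAL-29 cells and from between 7552 and 7884 to between 4931 and 5175 CPM in 5637 cells. In CAL-29 cells, the 4 basal markers summed to 2320 to 2627 CPM with siCtrl and 1087 to 1130 CPM with siKMT9α#1. In 5637 cells, they summed to 1670 to 1779 and 1643 to 1650 CPM, and the single markers moved in different directions. There, KRT6A and TP63 were upregulated DEGs (log2 fold changes 0.47 and 0.36) and KRT5 a downregulated DEG (-0.28). KRT14, with -1.0, was short of the threshold. The urothelial sum fell from between 143.0 and 144.3 to between 99.3 and 101.1 CPM in 5637 cells, and overlapped in CAL-29 cells. The part of these shifts in the results on the cascade was not tested.

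The sequence that the siRNA targets is shown because its seed was searched for in the cascade transcripts. The target lies in coding exon 3 of N6AMT1 on the minus strand, at chr21:30254500-30254524 (GRCh37, the assembly of hg19). The capitals mark ACATTCA, the 7 bases that pair with the guide strand's seed (positions 2 to 8).
N6AMT1 target: acgctgtaacaaagttcACATTCAa
No copy was found in the longest, shortest or MANE Select 3′ UTR of any of the 7 genes, nor in their whole MANE Select transcripts. Among 12395 genes tested in both lines with a 3′ UTR of at least 50 bases, 15.4% hold ACATTCA on the transcript strand of the longest 3′ UTR and 6.0% in the shortest. The corresponding 7 bases of siCtrl, ACGCAAA, occur in 2.1% of the longest 3′ UTRs and in none of the 7 genes. The absence of a match says only that these letters are not in these windows.

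MAPK3 fell in both lines, HRAS rose in 5637 cells, and none of the other 5 genes was a DEG in either line. In CAL-29 cells, 0 of 7 genes were upregulated DEGs, against 15.0% of all 14673 genes tested, and 1 of 7 was a downregulated DEG, also against 15.0%. In 5637 cells, 1 of 7 was upregulated, against 18.0% of 14335 genes, and 1 of 7 was downregulated, against 17.6%. At an adjusted p below 0.05, 3 of 7 genes were called in CAL-29 cells, against 69.5% of all genes, and 5 of 7 in 5637 cells, against 70.7%. The counts of DEGs were near the background or below it and are no result about the cascade as a group. The median log2 fold change of the 7 genes was 0.06 in CAL-29 and 0.01 in 5637 cells, while that of all genes was -0.02 and -0.01. All 7 genes passed the filter on low counts.

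**Figure D1:**
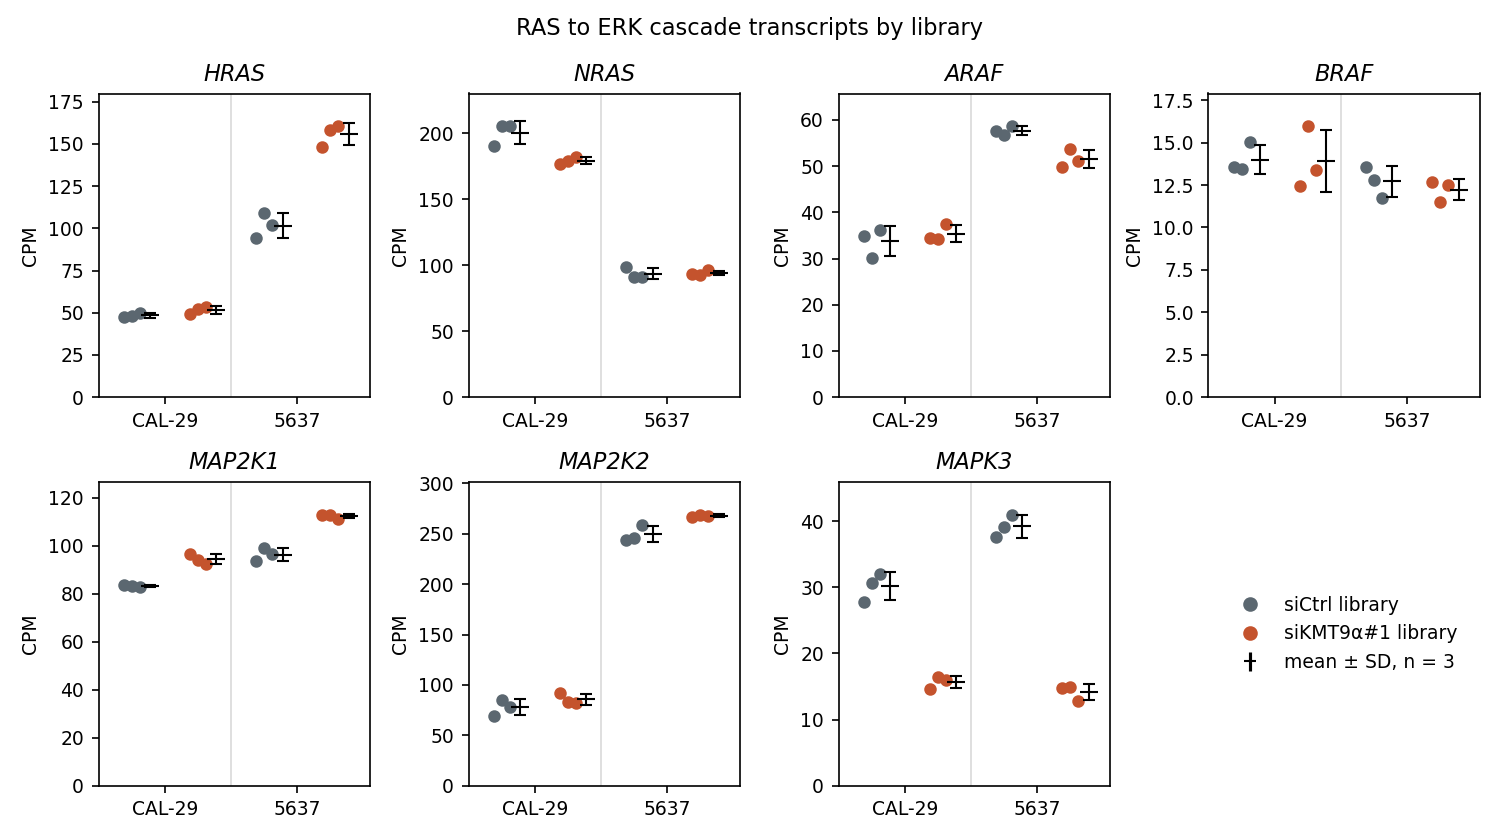
CPM (linear axis from 0, TMM-scaled within each line) of the 7 cascade genes in the 12 libraries, with siCtrl in gray and siKMT9α#1 in orange. Points are single libraries, and the bar beside them is the mean ± SD of 3 libraries. MAPK3 lies lower with siKMT9α#1 in both lines, with means of 30.2 and 15.7 CPM in CAL-29 and of 39.2 and 14.2 CPM in 5637 cells. HRAS lies higher in 5637 cells, where its means are 101.6 and 155.8 CPM, and its groups overlap in CAL-29 cells.

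At the level of the GTPases, HRAS (NM_176795) responded in 5637 cells. The level in 5637 cells was 94.0, 108.9 and 101.9 CPM with siCtrl and 148.3, 158.5 and 160.6 CPM with siKMT9α#1. All siKMT9α#1 libraries thus lay above all siCtrl libraries, and the mean rose from 101.6 ± 7.45 to 155.8 ± 6.62 CPM (SD, n = 3), which is 53.4% higher. The log2 fold change of 0.62 (SE 0.043, adjusted p = 2.25e-13) exceeded that of 92.0% of tested genes. In CAL-29 cells, HRAS had 47.3, 47.8 and 50.05 CPM with siCtrl and 49.1, 52.4 and 53.5 CPM with siKMT9α#1, and the groups overlapped. Its log2 fold change there was 0.09 (SE 0.056, adjusted p = 0.143), with an approximate 95% interval from -0.02 to 0.20. The response itself differed between the lines, by -0.51 on the log2 scale (CAL-29 minus 5637, SE 0.073, adjusted p = 1.17e-06 for the interaction term over all 12 libraries). The table holds 3 transcripts of HRAS, whose reads largely overlap, and their log2 fold changes were between 0.59 and 0.62 in 5637 cells and between 0.09 and 0.14 in CAL-29 cells. The highest in CAL-29 cells, that of NM_005343, had an adjusted p of 0.0413 in edgeR's fit of every transcript. HRAS lies on chromosome 11 from 532242 to 537321 on the minus strand.

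NRAS (NM_002524, chromosome 1 from 115247090 to 115259392, minus strand) did not follow HRAS. In CAL-29 cells, it had 190.1, 205.1 and 205.3 CPM with siCtrl and 176.6, 179.2 and 181.7 CPM with siKMT9α#1. The groups did not overlap, but the log2 fold change of -0.16 (SE 0.047, adjusted p = 0.00489) missed the DEG threshold. In 5637 cells, NRAS had 98.3, 91.2 and 90.9 CPM with siCtrl and 93.3, 92.7 and 96.0 CPM with siKMT9α#1, with overlapping groups and a log2 fold change of 0.01 (SE 0.039, adjusted p = 0.857). The difference between the responses was -0.15 (SE 0.061, adjusted p = 0.0395). This call was the least stable in the cascade: it was lost with scaling by total counts, where the difference was -0.035 (adjusted p = 0.670), and in 10 of 12 fits that left out 1 library.

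The RAS genes were also compared with each other as CPM per kilobase of the MANE Select transcript. The log2 ratio of NRAS to HRAS within a library does not depend on the scaling of the libraries. It was -1.95, -2.27 and -2.18 with siCtrl and -2.68, -2.79 and -2.76 with siKMT9α#1 in 5637 cells, a difference of -0.61. In CAL-29 cells, the ratio was -0.01, 0.08 and 0.02 with siCtrl and -0.17, -0.24 and -0.25 with siKMT9α#1, a difference of -0.25. The groups were separate in both lines, and the exact 2-sided permutation p of 0.1 is the smallest that 3 libraries against 3 allow.

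Among the RAF kinases, neither ARAF nor BRAF was a DEG. ARAF (NM_001654, X chromosome from 47420604 to 47431307, plus strand) had 57.6, 56.7 and 58.7 CPM with siCtrl and 49.8, 53.8 and 51.1 CPM with siKMT9α#1 in 5637 cells. The siKMT9α#1 libraries lay below the siCtrl libraries, with a log2 fold change of -0.16 (SE 0.044, adjusted p = 0.00189). In CAL-29 cells, the ARAF libraries had 34.8, 30.2 and 36.2 CPM with siCtrl and 34.5, 34.2 and 37.5 CPM with siKMT9α#1 and overlapped, and the log2 fold change was 0.07 (SE 0.071, adjusted p = 0.423). The responses differed by 0.24 (SE 0.083, adjusted p = 0.0157), but without the second siCtrl library of CAL-29, the one with 30.2 CPM, the difference was 0.17 (adjusted p = 0.0760), and without the third siKMT9α#1 library of CAL-29 it was 0.20 (adjusted p = 0.0554).

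BRAF (NM_004333, chromosome 7 from 140419127 to 140624729, minus strand) was the least expressed of the 7 genes, with between 11.5 and 16.0 CPM in all 12 libraries. The siRNA groups overlapped in both lines, and the adjusted p was 0.973 in CAL-29 and 0.565 in 5637 cells. At this level, the approximate 95% interval of the log2 fold change was -0.20 to 0.19 in CAL-29 and -0.21 to 0.11 in 5637 cells. Changes within these bounds are compatible with the data, and a change somewhat beyond them could still miss the DEG threshold. The annotation names 3 pseudogenes of ARAF and 1 of BRAF, and how reads shared with such copies were counted is not given in the sources used here.

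Within a library, the log2 ratio of ARAF to BRAF differed by 0.08 in CAL-29 (exact permutation p = 0.6) and by -0.11 in 5637 cells (p = 0.4, same test), with overlapping groups.

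The MEK genes had small positive log2 fold changes in both lines, all short of the DEG threshold. MAP2K1 (MEK1, NM_002755, chromosome 15 from 66679175 to 66783994, plus strand) had 83.5, 83.2 and 82.9 CPM with siCtrl and 96.5, 94.0 and 92.5 CPM with siKMT9α#1 in CAL-29 cells. The 5637 libraries had 93.6, 98.9 and 96.4 CPM with siCtrl and 113.0, 112.9 and 111.2 CPM with siKMT9α#1. Every siKMT9α#1 library lay above every siCtrl library of its line. The log2 fold changes were 0.18 (SE 0.046, adjusted p = 0.00162) in CAL-29 and 0.22 (SE 0.036, adjusted p = 3.32e-06) in 5637 cells. The unadjusted edgeR p in 5637 cells, 1.2e-06, lay just outside the threshold of 1e-06, and several other settings placed the gene inside it, so that 2 of 7 genes were then upregulated in 5637 cells. SNAPC5 and a gene known only by its identifier, both on the other strand, overlap 12.7% of its exon bases, and SNAPC5 had log2 fold changes of 0.36 and 0.28. The annotation names 1 pseudogene of MAP2K1.

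MAP2K2 (MEK2, NM_030662, chromosome 19 from 4090319 to 4124119, minus strand) had between 69.3 and 85.5 CPM with siCtrl and between 82.4 and 91.6 CPM with siKMT9α#1 in CAL-29 cells, and the groups overlapped (log2 fold change 0.14, SE 0.064, adjusted p = 0.0649). In 5637 cells, the level was higher, at between 244.1 and 258.4 CPM with siCtrl and between 266.4 and 269.1 CPM with siKMT9α#1, and the groups did not overlap (0.10, SE 0.032, adjusted p = 0.00611). The response did not differ detectably between the lines for MAP2K1 (-0.03, SE 0.057, adjusted p = 0.749) or MAP2K2 (0.05, SE 0.075, adjusted p = 0.608). The within-library log2 ratio of MAP2K1 to MAP2K2 differed by 0.04 in CAL-29 (exact permutation p = 0.7) and by 0.12 in 5637 cells (p = 0.1, same test).

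**Figure D2:**
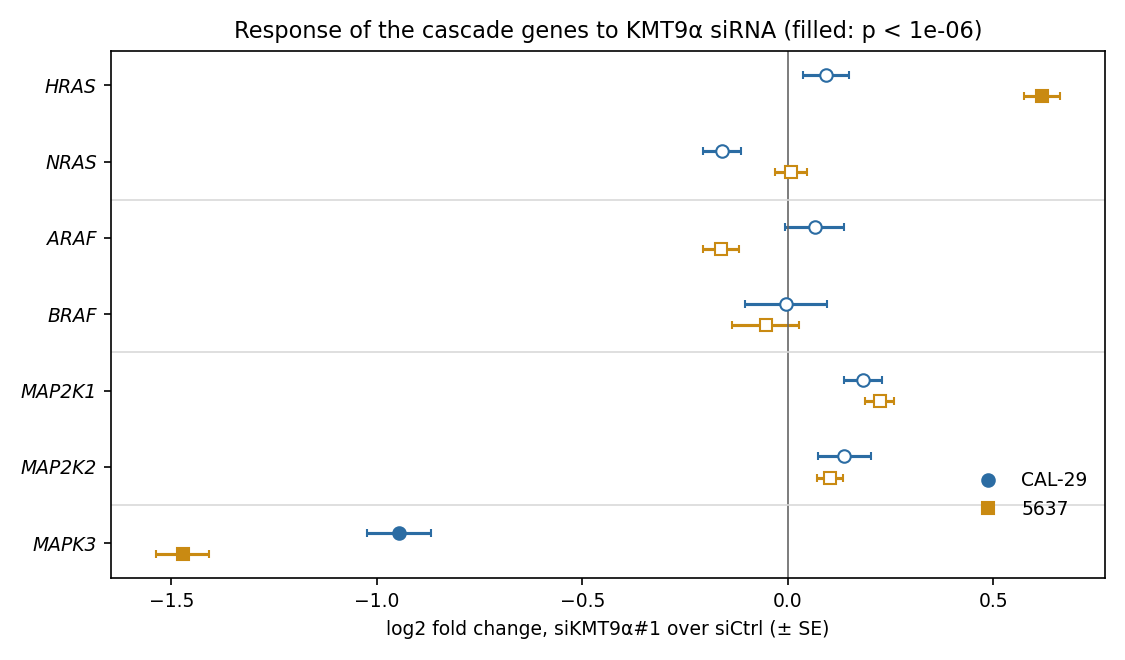
Log2 fold change of siKMT9α#1 over siCtrl ± SE for the 7 cascade genes, by tier, with CAL-29 as blue circles and 5637 as ochre squares. Filled symbols are DEGs (p below 1e-06). MAPK3 lies left of 0 in both lines, at -0.94 and -1.47, and HRAS is filled in 5637 cells only, at 0.62.

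MAPK3, which encodes ERK1 (NM_001040056, chromosome 16 from 30125426 to 30134827, minus strand), was the only one of the 7 genes that was a DEG in both lines. In CAL-29 cells, MAPK3 had 27.8, 30.6 and 32.1 CPM with siCtrl but 14.6, 16.5 and 15.9 CPM with siKMT9α#1. In 5637 cells, the values were 37.6, 39.2 and 41.0 CPM with siCtrl but 14.8, 14.99 and 12.8 CPM with siKMT9α#1. The siRNA groups were far apart in both lines. The level fell by 48.1% in CAL-29 cells (log2 fold change -0.94, SE 0.078, adjusted p = 9.90e-10) and by 64.0% in 5637 cells (-1.47, SE 0.064, adjusted p = 4.63e-18). Only 10.8% of genes in CAL-29 and 3.4% in 5637 cells had a lower log2 fold change. The fall was larger in 5637 cells, with a difference of 0.54 (SE 0.104, adjusted p = 7.19e-05). In bulk RNA, less RNA per cell and fewer cells with the transcript cannot be told apart.

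The 3 MAPK3 transcripts in the tables, whose reads largely overlap, all fell, with log2 fold changes between -0.97 and -0.95 in CAL-29 and between -1.48 and -1.47 in 5637 cells. No annotated gene overlaps the exons of MAPK3. In all 16 other settings or reduced sets of libraries tried in each line, the log2 fold change stayed between -0.998 and -0.866 in CAL-29 and between -1.53 and -1.40 in 5637 cells, with the DEG call kept.

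**Figure D3:**
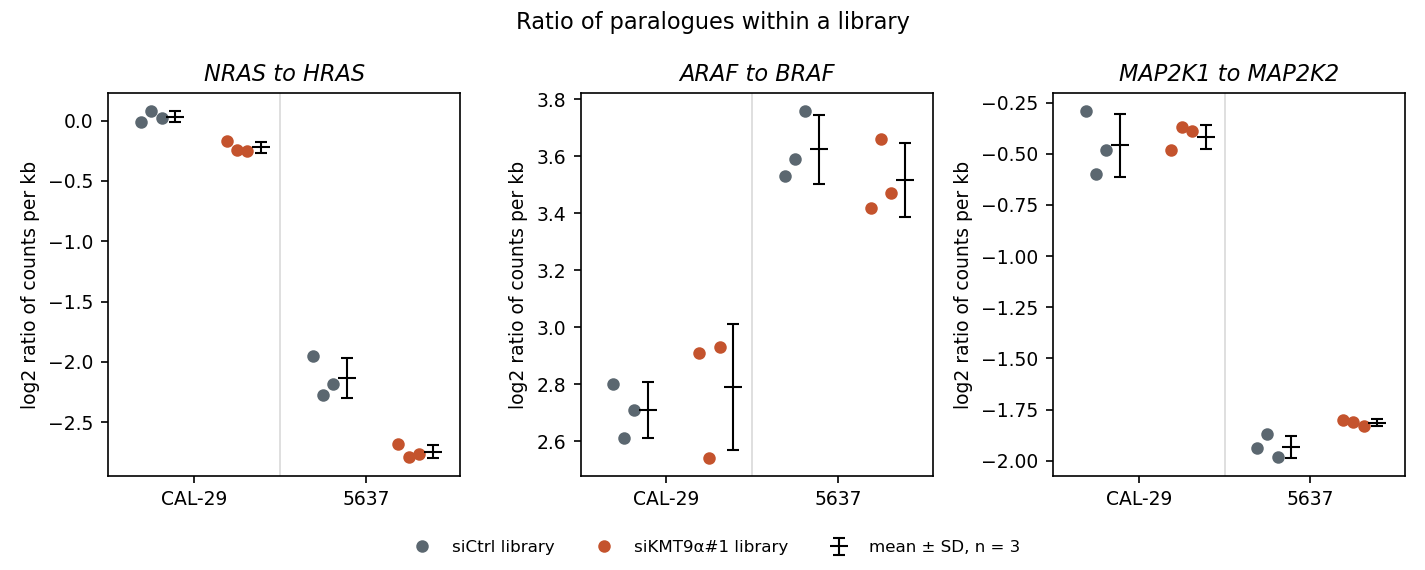
Log2 ratio of counts per kilobase between paralogues in the same library, for NRAS to HRAS, ARAF to BRAF and MAP2K1 to MAP2K2, with siCtrl in gray and siKMT9α#1 in orange. Points are single libraries, and the bar beside them is the mean ± SD of 3 libraries. The NRAS to HRAS ratio lies lower with siKMT9α#1 in both lines, by -0.25 in CAL-29 and -0.61 in 5637 cells, and the ARAF to BRAF groups overlap.

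The lines started from different levels. Between siCtrl libraries, 6 of the 7 genes were called different at an adjusted p below 0.05 in the joint fit, against 85.4% of all genes. MAP2K2 was lower in CAL-29 than in 5637 cells by -1.75 (log2 difference, SE 0.054), HRAS by -1.14 (SE 0.052), ARAF by -0.84 (SE 0.058), MAPK3 by -0.45 (SE 0.067) and MAP2K1 by -0.28 (SE 0.04), with adjusted p-values of at most 5.42e-07. NRAS was higher in CAL-29 cells by 1.03 (SE 0.043, adjusted p = 4.12e-19), and BRAF had a difference of 0.07 (SE 0.093, adjusted p = 0.464).

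Ordered by CPM per kilobase on the joint scale, the siCtrl libraries of 5637 had MAP2K2 first with 147.4, then HRAS with 96.9, MAP2K1 with 38.6, ARAF with 24.7, MAPK3 with 22.4, NRAS with 22.0 and BRAF with 2.01. The ranges of MAPK3 and NRAS overlapped, and the other neighbors were separate. In siCtrl libraries of CAL-29, NRAS with 45.0, HRAS with 44.0 and MAP2K2 with 43.9 overlapped, followed by MAP2K1 with 31.8, MAPK3 with 16.4, ARAF with 13.8 and BRAF with 2.11. With siKMT9α#1, MAPK3 was next to last, above BRAF, in both lines, with 8.65 in CAL-29 and 8.11 in 5637 cells. The lengths are those of the MANE Select transcripts, which need not be the RefSeq transcripts that were counted.

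For the responses, 4 of 7 genes were called different between the lines at an adjusted p below 0.05, against 50.4% of all 15395 genes in the joint fit. These were HRAS, NRAS, ARAF and MAPK3, given above. For BRAF, the difference was 0.07 (SE 0.132, adjusted p = 0.706).

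The genes around the cascade were grouped by role in lists that were, like the 7 genes, chosen with earlier results of these data known. Their counts of DEGs are to be read against those of all genes, of which 15.0% rose and 15.0% fell in CAL-29 cells, while 18.0% rose and 17.6% fell in 5637 cells. RRAS, a RAS-related GTPase linked to integrin adhesion, fell in both lines, from 36.2 to 16.4 CPM in CAL-29 (log2 fold change -1.14, SE 0.097) and from 44.0 to 29.8 CPM in 5637 cells (-0.56, SE 0.06). The fall was larger in CAL-29 cells, with a difference of -0.564 (SE 0.124, adjusted p = 0.000386 in the interaction test).

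Between the receptors and RAS, the 10 adaptors and exchange factors included 4 upregulated and 1 downregulated gene in CAL-29 cells (median 0.24) and 6 and 1 in 5637 cells (median 0.34). SHC1, an adaptor that binds activated receptors, rose from 54.3 to 108.0 CPM in CAL-29 and from 48.4 to 107.7 CPM in 5637 cells (log2 fold changes 0.99 and 1.15). The longest 3′ UTR of SHC1 holds 1 copy of the siCtrl match ACGCAAA and its shortest none, and neither holds ACATTCA. Whether the siCtrl match plays a part in the rise was not tested. GRB2, which brings the exchange factor SOS to the receptor, rose by 0.49 in both. CBL, a ubiquitin ligase for activated receptors, fell (-0.50 and -0.45). Of the 10 RAS GTPase-activating proteins and SPRED cofactors, which limit RAS signaling, 0 were upregulated DEGs and 3 fell in CAL-29 cells (median -0.16). Short of the threshold there were SPRED1 with a log2 fold change of 0.28 (adjusted p = 0.000370) and NF1 with 0.21 (adjusted p = 0.00139), whose siKMT9α#1 libraries all lay above the siCtrl libraries. In 5637 cells, 8 were tested, with 2 upregulated and 2 downregulated (median 0.05). The 2 upregulated genes were NF1, from 140.6 to 215.6 CPM (log2 fold change 0.62), and RASA3 (0.40). RASA1 (-0.49 and -0.57) and DAB2IP (-0.42 and -0.23), which both stimulate GTP hydrolysis by RAS, fell in both lines.

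Of the 10 genes for lipid processing and trafficking of RAS, CAL-29 cells had 0 upregulated and 2 downregulated (median 0.11) and 5637 cells 4 and 2 (median 0.19). The 2 downregulated genes were shared by the lines. GOLGA7, the partner of the palmitoyltransferase ZDHHC9 that acts on HRAS and NRAS, fell from 74.9 to 32.0 CPM in CAL-29 and from 51.0 to 16.6 CPM in 5637 cells (-1.22 and -1.62 on the log2 scale). ICMT, which methylates the prenylated end of RAS proteins, fell from 143.2 to 85.1 and from 185.8 to 96.1 CPM (-0.75 and -0.95), and its 3′ UTR holds 1 copy of ACATTCA, whereas that of GOLGA7 holds none. Of 19 scaffolds and RAF regulators, 4 rose and 1 fell in CAL-29 (median 0.12) and 3 and 1 in 5637 cells (median 0.05). HSP90AB1, a chaperone of RAF kinases, rose by 0.72 and 0.57, and PPP1CC, a catalytic subunit of protein phosphatase 1, by 0.51 and 0.34.

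**Figure D4:**
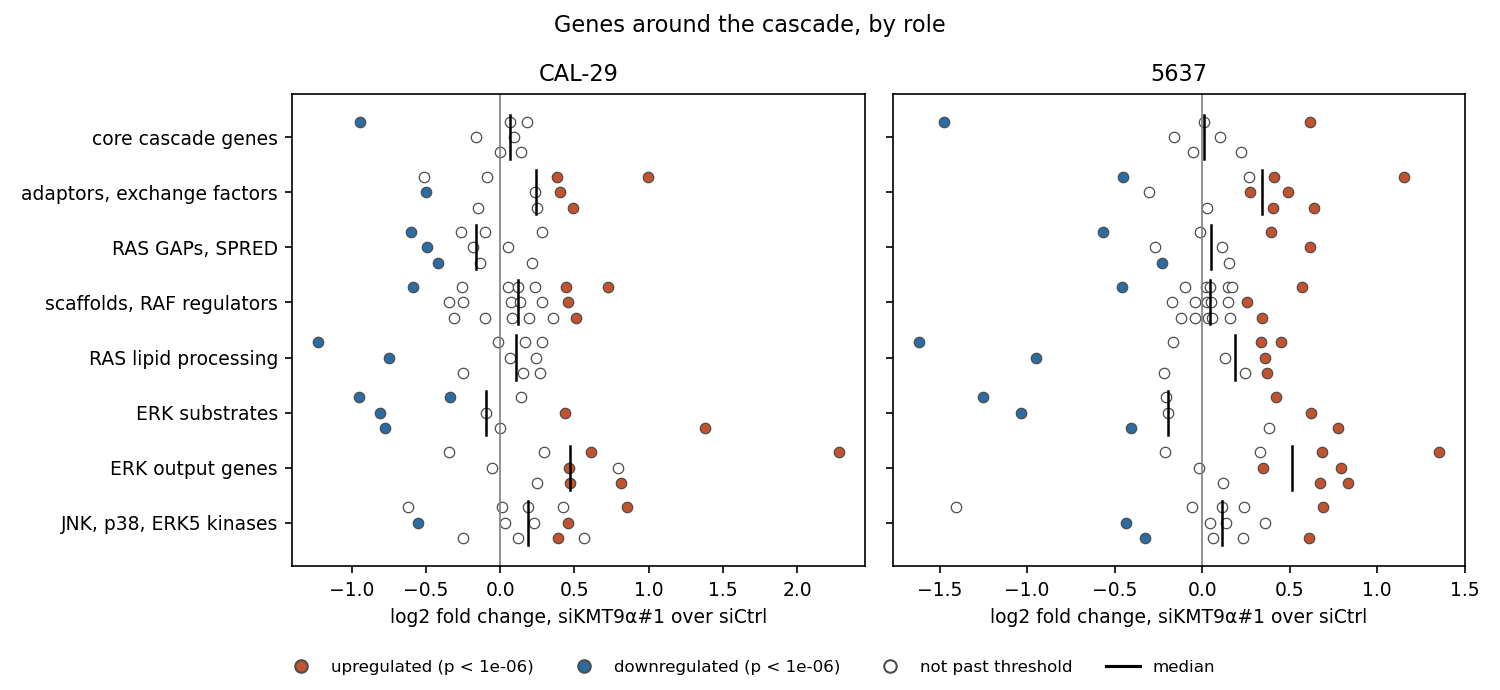
Log2 fold change of siKMT9α#1 over siCtrl for each tested gene of the cascade and of the lists around it, in CAL-29 cells (left) and 5637 cells (right). Upregulated DEGs are red, downregulated DEGs blue and other genes white, and the black line is the median of the list. The ERK output genes have the highest medians, 0.47 and 0.51, and no blue point in either line.

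Downstream of ERK, the 9 substrates were split, with 2 upregulated and 4 downregulated genes in CAL-29 (median -0.10) and 3 and 3 in 5637 cells (median -0.20). Among the RSK kinases, RPS6KA3 fell (-0.95 and -1.03) whereas RPS6KA2 rose (0.44 and 0.78). ELK4, an ETS transcription factor phosphorylated by ERK, fell (-0.81 and -1.25), and its longest 3′ UTR holds 2 copies of ACATTCA and its shortest none. MKNK2, a kinase of the translation factor eIF4E, fell in CAL-29 (-0.34) and rose in 5637 cells (0.42), and the difference of -0.75 (SE 0.057) passed the interaction test (adjusted p = 7.07e-12). Of the 10 genes that are commonly read as ERK output, 5 were upregulated in CAL-29 and 6 in 5637 cells, and 0 were downregulated in either (medians 0.47 and 0.51). PHLDA1 rose from 78.3 to 380.8 CPM in CAL-29 and from 205.4 to 525.3 CPM in 5637 cells (2.28 and 1.36), with 1 copy of ACATTCA in its 3′ UTR. DUSP6, the phosphatase that inactivates ERK and is itself induced by ERK, rose from 42.5 to 64.9 and from 87.1 to 155.1 CPM (0.61 and 0.83). The members short of the threshold included EPHA4, with -0.34 in CAL-29 and -0.21 in 5637 cells, EPHA2 with -0.06 in CAL-29 and ETV4 with -0.02 in 5637 cells. PHLDA1 and DUSP6 RNA rose in the same libraries in which MAPK3 RNA fell, and protein or phosphorylation of ERK was not measured in these libraries.

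For comparison, of 13 kinases of the JNK, p38 and ERK5 cascades, 3 rose and 1 fell in CAL-29 (median 0.18) and 2 and 2 in 5637 cells (median 0.11). MAP2K4, a kinase of JNK, rose (0.46 and 0.69), and MAPK14, which encodes p38α, fell (-0.56 and -0.43).

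The genes whose log2 CPM over the 12 libraries was most like that of each cascade gene were taken from 11908 genes that averaged 50 or more counts in both lines. For MAPK3, these were INPP1 (Pearson's r = 0.991) and TMX1 (0.988), and 115 genes had r above 0.95. For HRAS, ANO1 (0.998) and DNM2 (0.997) came first, with 851 genes above 0.95. NRAS was closest to CTNNA1 (0.998) and RAB5B (0.997), ARAF to DIAPH2 and MPST (0.990 each), and MAP2K1 to PIP4K2A (0.997) and ELOA (0.996). MAP2K2 was closest to SLC9A3R2 (rounded to 1) and HIGD2A (0.999), with 1420 genes above 0.95. For BRAF, whose levels varied little, MMAA (0.794) and BTBD1 (0.787) came first, and 0 genes were above 0.95. The 12 libraries fall into 4 groups, so that these values mainly describe the group means.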

How the data were processed

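RNAseq counts of 12 libraries of CAL-29 and 5637 cells were analyzed. Per the labels and the study's methods, the authors used STAR for alignment to hg19 and Homer for counting (analyzeRepeats, default settings). The deposited tables hold estimated counts for 37400 RefSeq transcripts, without normalization, of which 37.3% of the values are not whole. Their columns of the authors' own p-values, adjusted p-values and log2 fold changes were not used, and no other column was left out. Groups were taken from the sample labels.

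Per symbol, only the RefSeq row holding the most counts was used, rounded to whole numbers. In edgeR 4.0.16 (R 4.3.3), TMM scaling, filterByExpr and the quasi-likelihood F test were applied within each line, and a joint fit of 12 libraries gave the difference between the lines. The SE is the size of the log2 fold change divided by the square root of F, and intervals were taken from the SE. DEGs passed the threshold of the study's methods, p below 1e-06, and calls of the joint fit an adjusted p below 0.05. The tests were checked on simulated counts. The biological coefficient of variation was 5.08% in CAL-29 and 3.34% in 5637 cells. No library was a copy of another (chi-square divided by its degrees of freedom, 2.24 to 12.3 between replicates). The values of 8.19 and 12.3 were those of CAL-29 siCtrl replicate 1 against its replicates, and no other pair exceeded 3.97. Without that library, CAL-29 cells had 2786 upregulated and 2683 downregulated DEGs, against 2194 and 2208 with it. Over all genes together, replicates thus differed by more than counting alone would give. This need not hold for genes with few counts, such as BRAF.

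Positions, transcript lengths and 3′ UTRs are those of GENCODE v44 lifted to GRCh37. The cascade genes and lists were chosen with earlier results of these data known. Named beside the cascade genes are N6AMT1 and EGFR, in each list up to 2 genes per direction that were DEGs in both lines with the largest smaller change and an average of 50 or more counts, up to 1 gene called in opposite directions, and the 2 genes most like each cascade gene. The alternatives were other filters, scalings and thresholds, a likelihood ratio test, DESeq2 1.42.0, a replicate block, every transcript, a joint fit, leaving out single libraries and the shortest 3′ UTR. The search of whole transcripts was added after the data were seen, as were the names of some further list members. Some related genes are not reported here.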

Additional observations from a re-analysis of the deposited data

Results flagged for a closer look

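For 4 of the 7 cascade genes, the response to siKMT9α#1 differed between CAL-29 and 5637 cells by edgeR's interaction test. The difference in log2 fold change (CAL-29 minus 5637) was -0.508 for HRAS, which was a DEG in 5637 cells only, and 0.542 for MAPK3, which fell in both lines and by more in 5637 cells. It was -0.152 for NRAS and 0.242 for ARAF, where neither line gave a DEG. The calls for NRAS and ARAF were each lost in some fits that left out 1 library, as given above. Reagent, dose and culture medium differed between the lines as well and cannot be told apart from the line. Of all genes tested, 50.4% were called by the same test.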

How the results depend on the processing

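In both lines, MAPK3 stayed a downregulated DEG, and HRAS an upregulated DEG in 5637 cells, under every alternative run. At an adjusted p below 0.05, CAL-29 cells had 1 upregulated and 2 downregulated genes and 5637 cells 3 and 2. MAP2K1 joined HRAS, making 2 upregulated genes in 5637 cells, with no filter on low counts, DESeq2's size factors, edgeR's likelihood ratio test, DESeq2, every transcript in the fit and the replicate block. With each library left out in turn, between 1 and 2 genes were upregulated in 5637 cells, and 2 only without siCtrl replicate 2. The deviations of same-numbered libraries from their group means had correlations between -0.013 and 0.082. Those of differently numbered libraries had correlations between -0.078 and 0.039. Whether the numbers pair the libraries cannot be told from correlations this small. Apart from MAP2K1 in 5637 cells, the replicate block changed no DEG call of a cascade gene. Between 2 and 4 genes were called in the difference between the lines with 1 library left out, with 2 without CAL-29 siCtrl replicate 2 or CAL-29 siKMT9α#1 replicate 3.

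Values near 0 changed sign. BRAF in CAL-29 cells was 0.003 with no filter, 0.075 with total counts, 0.006 with DESeq2's size factors, 0.005 with DESeq2 and 0.014 in the joint fit, and between -0.116 and 0.077 with 1 library left out. NRAS in 5637 cells was -0.001 with at least 10 counts in every library, -0.046 with total counts and -0.033 with upper quartile scaling, and between -0.013 and 0.048 with 1 library left out. ARAF in CAL-29 cells ranged between -0.004 and 0.133 with 1 library left out, and the ratio of MAP2K1 to MAP2K2 in CAL-29 cells between -0.03 and 0.124. The difference between the lines was 0.092 for MAP2K1 with total counts, and with 1 library left out it ranged between -0.024 and 0.127 for MAP2K2 and between -0.046 and 0.149 for BRAF. For NRAS, it was -0.035 (adjusted p = 0.670) with total counts and -0.148 (adjusted p = 0.0585) with no filter. The cause was not tested. Scaling by total counts moved the median difference of all genes from 0.0431 to 0.16, and split the DEGs into 2754 up and 1879 down in CAL-29 (2194 and 2208 with TMM) and 2102 and 2808 in 5637 cells (2581 and 2523).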
